A study of Mus musculus with 3 samples.

Results

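This account covers 56 genes of DNA replication and S phase among the 19938 genes measured in mouse bone marrow-derived dendritic cells. The genes were named as the parts of the replication machinery and its supply and control, by their known roles, and all 56 had a probe set of their own. Marrow cells of C57BL/6J mice were plated at 2000000 cells per well and differentiated for 9 days with 20 ng/ml murine GM-CSF and 20 ng/ml murine IL-4, and 150 ng of total RNA per sample was amplified, labelled and hybridised to a whole-transcript array. All 3 samples (replicates 1, 2 and 3) carry the same labels, with no treatment, genotype or time contrast, and name no sort of the cells. Separate mice or cultures are not named in the labels, so each SD below covers only these 3 arrays and may hold nothing but technical spread. Every value is log2 expression as the authors deposited it after RMA, and differences between arrays are in log2 units.

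DNA replication is prepared in G1, when the origin recognition complex, Cdc6 and Cdt1 load the ring-shaped MCM helicase onto origins, and starts in S phase, when kinases recruit Cdc45 and GINS to switch the helicase on. Polymerases, the sliding clamp PCNA and its loader then copy both strands, ligase joins the lagging-strand fragments, and ribonucleotide reductase and thymidylate enzymes supply the building blocks. Many of these genes are transcribed late in G1 under E2F transcription factors, so their messages are common in cycling cells and scarce in resting ones. GM-CSF marrow cultures hold dividing precursors beside dendritic cells that have left the cycle.

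The arrays resembled each other, with Pearson's r across all probe sets, which are not independent, between 0.994 and 0.996. Of 12 dendritic cell markers 11 were above background, among them H2-Ab1 at 12.31, 12.36 and 12.42 in replicates 1, 2 and 3, while Flt3 lay below it. Against 60.5% of all genes above background in every array, the share was 90.9% of 11 measured T cell markers, 71.4% of 7 erythroid and megakaryocyte markers, 58.3% of 12 NK cell markers and 42.9% of 7 B cell and plasma cell markers. It was 41.7% of 12 neutrophil markers, 40% of 10 mast cell and basophil markers, 40% of 10 stem and progenitor markers and 30% of 10 stromal markers. Replicate 1 stood apart in some stromal genes, with Dcn at 8.12, 5.36 and 5.41 and Lox at 7.58, 4.47 and 4.63 in replicates 1, 2 and 3 (named after their values were seen). In 44.8% of all probe sets the 3 arrays carry exactly the same number, so an SD near 0 does not measure precision. For the same reason, identical values below do not show that a gene's RNA was equal in the arrays.

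Nearly all replication genes were detected. Above background in all 3 arrays were 52 of the 56 (92.9%), against 60.5% of all genes. The receptor probe sets that set this limit put it at 5.54, 5.54 and 5.55 in replicates 1, 2 and 3. The call sets probe sets of different binding strength against 1 limit, and detection is only roughly stated by it. Orc1 and Clspn lay below the limit in every array, and Cdc6 and Pole lay above it in replicates 1 and 2 and below it in replicate 3. Just inside were Cdc7 at 5.71 in each array, Gmnn at 5.78, 5.78 and 5.66, and Prim1 at 5.88, 5.78 and 5.57. With a stricter limit, taken from the 99th in place of the 95th percentile of the same receptors, 42 of the 56 were detected. The share of all genes past this stricter limit was not counted, so the 42 cannot be set against the 60.5%.

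Where the arrays differed, replicate 3 was usually the lowest. The 3 values were identical for 10 of the 56 genes, against 57.1% of all genes. Of the 46 with values that differed, 31 (67.4%) had their single lowest value in replicate 3, against 34.2% of such genes on the whole array. Among the genes above background these counts were 27 of 42 (64.3%) for the replication genes and 2443 of 6456 (37.8%) for all genes. Of 30 replication genes with 3 different values, 27 (90.0%) had replicate 1 highest, replicate 2 between and replicate 3 lowest, against 38.9% of all genes with 3 different values. The median difference over the 56 genes was 0.056 for replicate 1 minus replicate 2, 0.17 for replicate 1 minus replicate 3 and 0.085 for replicate 2 minus replicate 3, whereas the median over all genes was 0 for each pair. Replicates 1 and 3 carried equal values in 12181 of the 19938 genes and in 11 of the 56. Over genes whose 3 values were not all identical, the median of replicate 1 minus replicate 3 was 0.29 for the replication genes and 0 for all genes. The span, meaning the highest minus the lowest array, exceeded 0.5 in 13 of the 56 genes (23.2%), against 2.18% of all genes. In each of these 13 the span was replicate 1 minus replicate 3, a difference that exceeded 0.5 in 1.59% of all genes. These 13 made up 4.09% of the 318 genes past that size.

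These sizes rest on replicates 1 and 3. Without replicate 3 none of the 56 genes spanned more than 0.5, against 59 of 19938 genes in all (0.296%). Without replicate 1 only Mcm5, Mcm7, Pole and Rrm2 did, 4 of the 56, against 209 of all genes (1.05%). Without replicate 2 all 13 did, against 403 of all genes (2.02%). That last count of 13 was fixed in advance, since each of these spans is replicate 1 minus replicate 3. The genes nearest the size limit were Tk1 (0.501) and Mcm4 (0.505) inside it and Mcm6 (0.494) outside it. With 3 samples of 1 group there is no test of these differences. In these bulk samples, fewer cells of a type and less RNA per cell cannot be told apart.

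**Figure D1:**
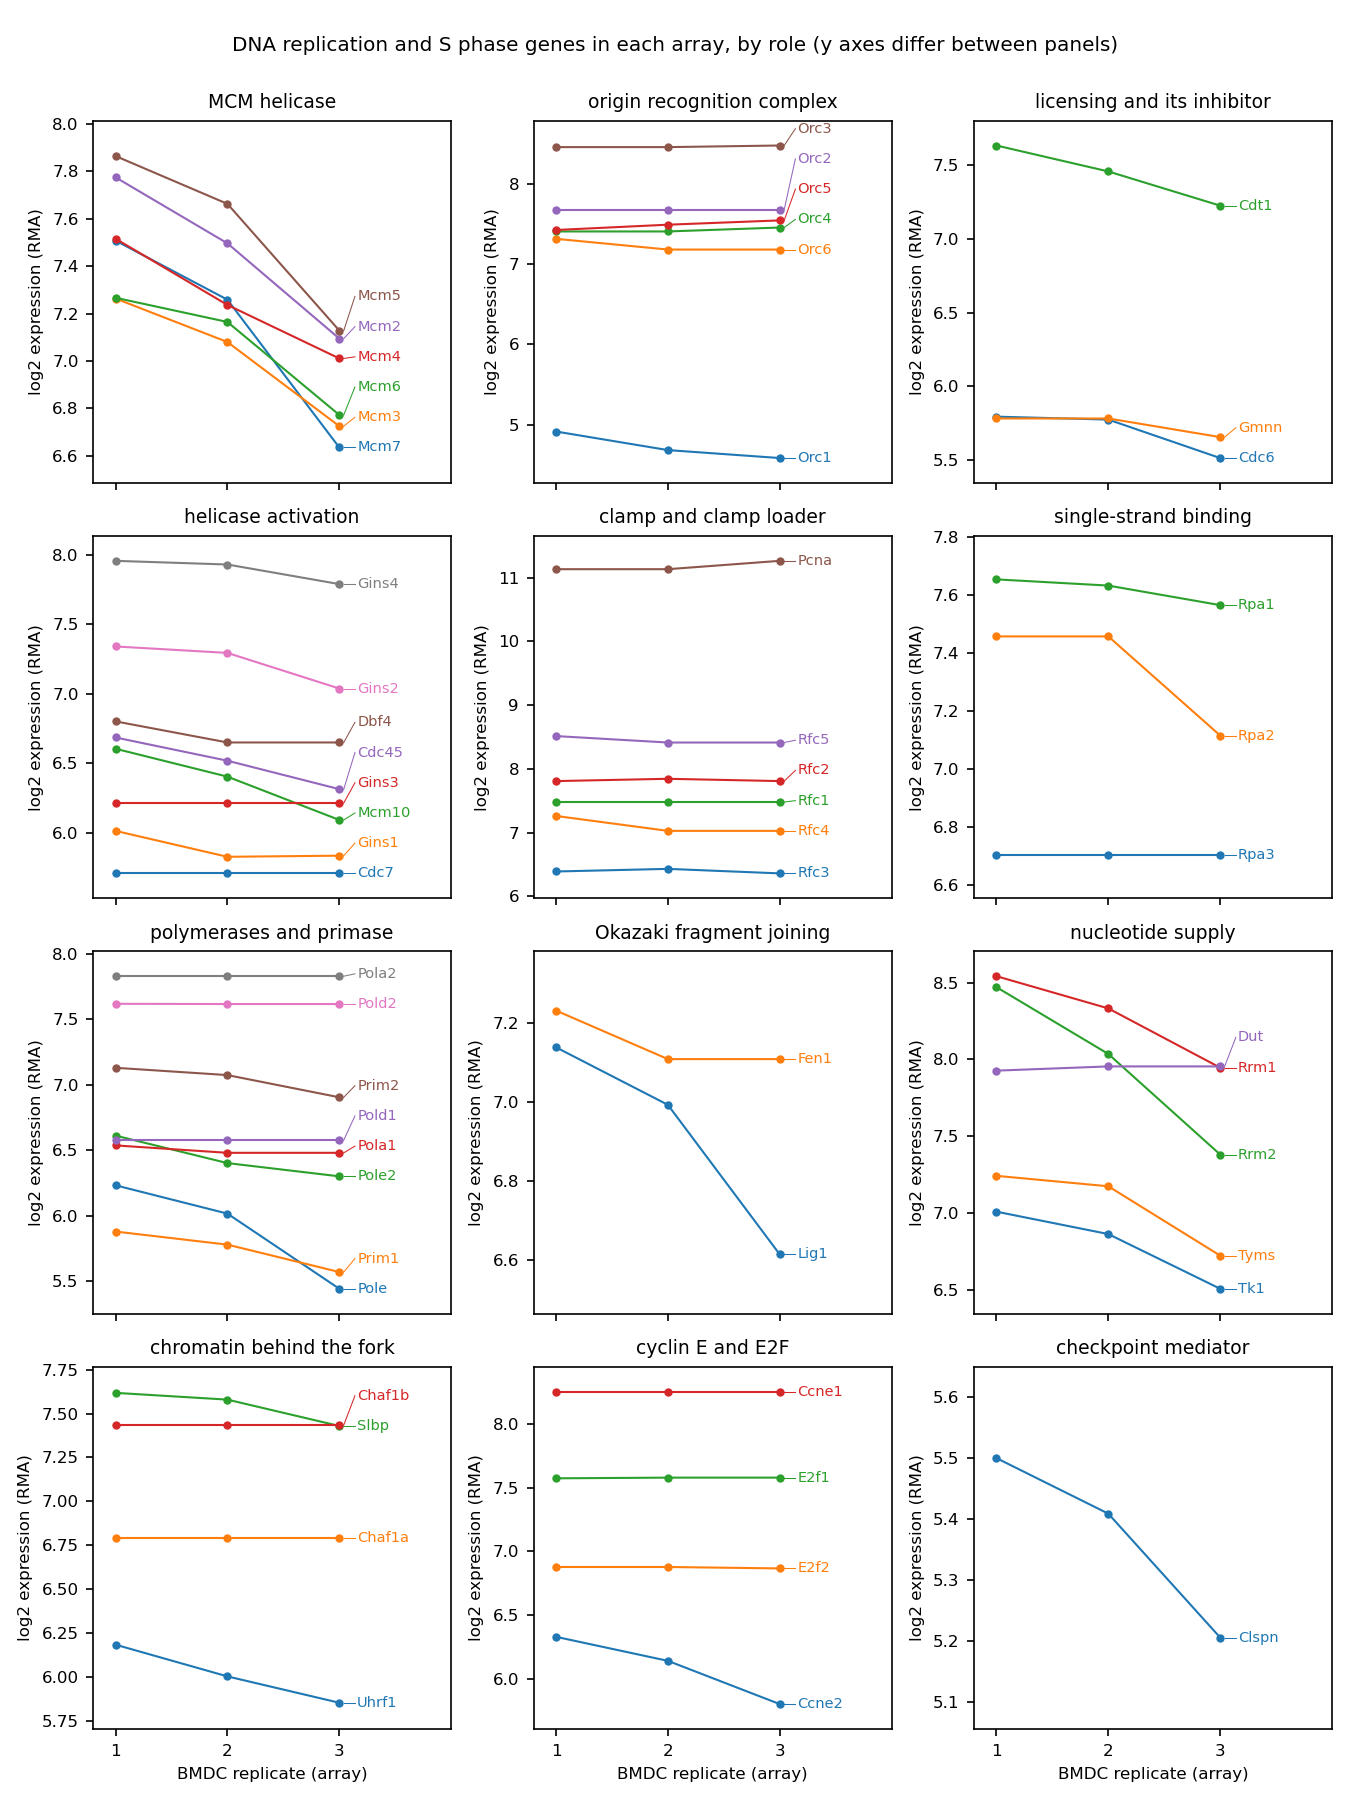
Log2 expression (RMA) of the 56 replication and S phase genes in BMDC replicates 1, 2 and 3, by role, with 1 line per gene and a y axis of its own in each panel. All 6 MCM genes are lowest in replicate 3, whereas Orc2 and Ccne1 have identical deposited values.

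The MCM helicase genes were alike. Mcm2 to Mcm7 encode the 6 subunits of the ring that unwinds DNA at the fork, and each had its highest value in replicate 1 and its lowest in replicate 3. Mcm7 had 7.51, 7.26 and 6.64 in replicates 1, 2 and 3 (7.13 ± 0.45, SD, n = 3), a 1.83-fold difference between replicates 1 and 3. Mcm5 had 7.86, 7.66 and 7.13, and Mcm2 had 7.77, 7.50 and 7.09. For each of them replicate 2 lay nearer to replicate 1 than to replicate 3. The other subunits differed by less between replicates 1 and 3, with 0.54 for Mcm3, 0.50 for Mcm4 and 0.49 for Mcm6. Over the 6 genes the linear values summed to 1125, 966 and 720 in replicates 1, 2 and 3. Their differences between replicates 1 and 3 ranked between 94 for Mcm7 and 327 for Mcm6 among the 19938 genes, counted from the largest.

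Promoter sequence was not read when these genes were chosen. Many genes of these roles are known E2F targets, however, so a high share of E2F matches is not independent of that choice. RefSeq windows of 250 bases before to 50 after the start were given for 47 of the 56 genes (58 windows, build GRCm38.p6), and not for Mcm4, Gmnn, Gins1, Gins2, Gins4, Rfc2, Prim2, Pole and Ccne2. The E2F motif was searched on both strands as TTTCCCGC, TTTGGCGC, TTTCGCGC or TTTGCCGC. It was present in 17 of the 47 genes (36.2%), against 2.61% of the 27025 genes with a window and 4.47% of the 9674 of them above background here. Counted by window, it was in 17 of 58 (29.3%), against 2.26% of all 32851. A match describes these letters and shows no binding.

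The windows of the 3 genes with the largest spans among the 17 are printed on the gene's own strand, with the E2F matches in capitals. The fourth, Ccne1, has identical values in the 3 arrays and was taken by alphabetical order among genes tied at that smallest span. Of the 17 genes with an E2F match, 2 (Gins3 and Pold1) have identical values as well. Mcm7 lies at chr5:138171834-138172133 on the minus strand, Mcm5 at chr8:75109259-75109558 on the plus strand, Mcm3 at chr1:20820263-20820562 on the minus strand and Ccne1 at chr7:38107441-38107740 on the minus strand.
Mcm7: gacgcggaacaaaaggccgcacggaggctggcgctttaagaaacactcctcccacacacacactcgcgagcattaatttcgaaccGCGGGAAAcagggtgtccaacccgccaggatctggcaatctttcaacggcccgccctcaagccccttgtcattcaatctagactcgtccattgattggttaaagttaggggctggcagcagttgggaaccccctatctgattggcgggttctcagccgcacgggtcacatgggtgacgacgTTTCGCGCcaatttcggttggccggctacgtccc
Mcm5: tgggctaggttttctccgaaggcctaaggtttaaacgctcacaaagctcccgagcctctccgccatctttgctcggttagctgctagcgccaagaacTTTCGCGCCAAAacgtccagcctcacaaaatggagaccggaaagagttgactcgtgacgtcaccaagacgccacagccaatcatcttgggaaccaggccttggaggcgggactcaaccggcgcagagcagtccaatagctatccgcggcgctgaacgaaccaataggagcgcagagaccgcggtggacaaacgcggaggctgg
Mcm3: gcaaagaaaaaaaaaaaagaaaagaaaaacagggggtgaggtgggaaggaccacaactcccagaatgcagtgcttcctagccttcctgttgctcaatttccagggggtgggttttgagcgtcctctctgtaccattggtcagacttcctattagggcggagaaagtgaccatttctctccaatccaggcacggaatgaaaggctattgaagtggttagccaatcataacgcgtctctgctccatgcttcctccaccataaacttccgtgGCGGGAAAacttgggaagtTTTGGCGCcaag
Ccne1: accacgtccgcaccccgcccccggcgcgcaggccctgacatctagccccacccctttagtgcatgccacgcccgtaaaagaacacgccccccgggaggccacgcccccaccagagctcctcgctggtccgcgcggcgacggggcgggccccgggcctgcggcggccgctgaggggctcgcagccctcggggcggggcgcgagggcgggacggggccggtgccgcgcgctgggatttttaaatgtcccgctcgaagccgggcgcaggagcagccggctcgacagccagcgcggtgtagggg

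Each of the 3 MCM windows holds 2 E2F matches and 3 copies of CCAAT, the box bound by NF-Y, on either strand. In Mcm5 the 2 E2F matches lie on opposite strands and share bases. The Ccne1 window holds no E2F match and no CCAAT, but 4 copies of GGGCGG, the box bound by SP1, and its GC content is 76.0%, against 57.3%, 57.7% and 48.7% in Mcm7, Mcm5 and Mcm3. No match in Ccne1 says only that these letters are not in this window.

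The other 14 genes with a match are shown by the first match of their window with up to 10 bases on each side, again in gene orientation, to let the sites be compared across the machinery.
Mcm6 (chr1:128359798-128359825, minus strand): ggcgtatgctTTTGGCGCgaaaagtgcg
Orc1 (chr4:108579417-108579444, plus strand): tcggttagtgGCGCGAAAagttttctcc
Orc3 (chr4:34614966-34614993, minus strand): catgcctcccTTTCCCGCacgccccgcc
Cdc6 (chr11:98908003-98908030, plus strand): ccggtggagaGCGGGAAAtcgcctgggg
Cdt1 (chr8:122568037-122568064, plus strand): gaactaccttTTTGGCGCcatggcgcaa
Gins3 (chr8:95633508-95633535, plus strand): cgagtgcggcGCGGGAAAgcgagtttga
Rfc3 (chr5:151651201-151651228, minus strand): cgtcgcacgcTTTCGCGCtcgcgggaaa
Pola1 (chrX:93632276-93632303, minus strand): tcatcacaggGCGCCAAAtgcactcccg
Pold1 (chr7:44548766-44548786, minus strand): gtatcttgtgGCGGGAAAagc
Pole2 (chr12:69228163-69228190, minus strand): gtcggcggtgGCGCCAAAtcgcgaacat
Lig1 (chr7:13278842-13278869, plus strand): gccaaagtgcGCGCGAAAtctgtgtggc
Uhrf1 (chr17:56304118-56304145, plus strand): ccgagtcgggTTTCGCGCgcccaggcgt
E2f2 (chr4:136172303-136172323, plus strand): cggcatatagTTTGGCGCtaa
Clspn (chr4:126556991-126557018, plus strand): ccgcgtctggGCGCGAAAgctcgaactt

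Of the 17 first matches, 6 read TTTCCCGC, 6 TTTCGCGC and 5 TTTGGCGC on one strand or the other, and none read TTTGCCGC. All 23 matches began between base -185 and base 40, counted from the start, with 15 of them within 100 bases of it. Of the 23, 4 shared bases with another E2F match, 1 with a CCAAT box and 0 with an SP1 box. The CCAAT box was in the windows of 28 of the 47 genes (59.6%, against 41.1% of all genes with a window and 41.8% of those above background) and the SP1 box in 37 (78.7%, against 38.2% and 66.9%). The CHR element known from genes of mitosis, searched as TTTGAA, was in 8 (17.0%), a share below the 20.2% of all genes but above that of the genes above background, where 1358 of 9674 held it. The median difference between replicates 1 and 3 was 0.31 in the 17 genes with an E2F match and 0.095 in the 30 with a window and none, and replicate 3 was the single lowest array in 13 of the 17 and 11 of the 30. The ranges overlapped, at -0.02 to 0.87 with a match and -0.13 to 1.09 without, and Rrm2, which has the largest difference of all 56, has no match to these 8 letters. With the 7-letter core of the motif, 29 of the 47 genes held a match, Rrm2 among them. That is 61.7%, against 10.9% of all genes and 18.6% of those above background. The medians were then 0.28 with and 0.095 without. The span exceeded 0.5 in 4 of the 17 genes with an 8-letter match and 6 of the 30 without. Unequal medians were not particular to E2F. They were 0.24 in the 28 genes with a CCAAT box and 0.101 in the 19 without. For the SP1 box they were 0.089 in 37 genes with it and 0.29 in 10 without. For the CHR element they were 0.067 in 8 and 0.19 in 39.

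**Figure D2:**
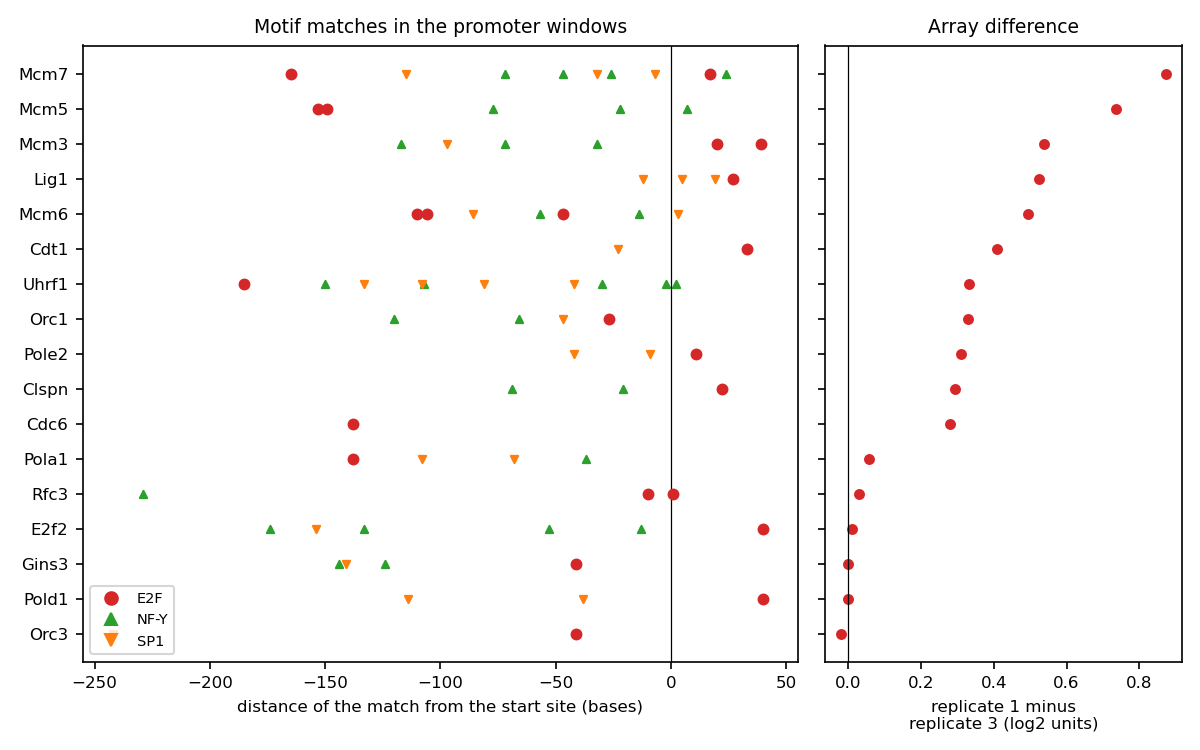
Left, positions of E2F, NF-Y (CCAAT) and SP1 (GGGCGG) matches from the start site, in bases, for the 17 genes with an E2F match, over all RefSeq windows of a gene. Right, replicate 1 minus replicate 3 in log2 units for the same genes, which runs from 0.87 in Mcm7 to -0.02 in Orc3, so matches occur at both ends of the range.

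The origin recognition complex, which marks the sites where the helicase is loaded, did not follow the MCM genes. Orc2 had 7.68 in each array, Orc3 had 8.45, 8.45 and 8.47, and Orc4 had 7.40, 7.40 and 7.45 in replicates 1, 2 and 3. Orc5 had 7.42, 7.49 and 7.54, and so was lowest in replicate 1. Orc6 had 7.31, 7.18 and 7.18. These 5 subunits thus differed by at most 0.13 between any pair of arrays. Orc1, whose human gene is known as an E2F target, had 4.91, 4.68 and 4.58, below background throughout and lowest in replicate 3.

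The licensing genes were lowest in replicate 3 in all 3 cases. Cdt1, which brings the MCM ring to the origin, had 7.63, 7.46 and 7.23 (7.44 ± 0.20, SD, n = 3). Cdc6, the ATPase that works beside it, had 5.79, 5.77 and 5.51, close to the background limit. Gmnn, which encodes geminin, the inhibitor of Cdt1 in S and G2, had 5.78, 5.78 and 5.66.

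Genes of helicase activation were mixed. Mcm10, which helps to start unwinding, had 6.61, 6.41 and 6.09 in replicates 1, 2 and 3, and Cdc45, a partner of the active helicase, had 6.69, 6.52 and 6.32. Both were lowest in replicate 3. The GINS complex, the other partner, was uneven, since Gins2 had 7.34, 7.29 and 7.04 and Gins4 7.95, 7.93 and 7.79, whereas Gins3 had 6.22 in each array and Gins1 was lowest in replicate 2 at 6.02, 5.83 and 5.84. Cdc7, the kinase that triggers firing, had 5.71 in each array, and its activator Dbf4 had 6.80, 6.65 and 6.65.

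The clamp and its loader differed little between arrays, and the clamp went the other way. Pcna had 11.13, 11.13 and 11.27 in replicates 1, 2 and 3, highest in replicate 3. Its second probe set had 11.11, 11.11 and 11.24, so both gave the same difference of -0.13 between replicates 1 and 3. Before rounding, the gap between these probe sets was the same in each array, so they may not be independent measurements. Of the loader subunits, Rfc1 had 7.48 in each array, Rfc2 had 7.81, 7.84 and 7.81, and Rfc3 had 6.39, 6.43 and 6.36. Rfc4 had 7.26, 7.03 and 7.03, the widest span of the loader at 0.23, and Rfc5 had 8.51, 8.41 and 8.41. In Rfc4 and Rfc5 replicate 1 was high and the other arrays were identical. Of the single-strand binding complex RPA, Rpa2 had 7.46, 7.46 and 7.12, Rpa1 had 7.65, 7.63 and 7.57, and Rpa3 had 6.71 in each array.

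Among the polymerases the catalytic subunit of the leading-strand enzyme stood out. Pole had 6.23, 6.02 and 5.44 in replicates 1, 2 and 3 (5.90 ± 0.41, SD, n = 3), a 1.73-fold difference between replicates 1 and 3 that ends below the background limit of replicate 3. Its partner Pole2 had 6.61, 6.40 and 6.30. The deposited values of the lagging-strand polymerase hold no such difference, with Pold1 at 6.58 and Pold2 at 7.62 in each array to 2 decimals. Values this close do not show that these genes were level. Of the priming enzyme, the primase genes Prim1 (5.88, 5.78 and 5.57) and Prim2 (7.13, 7.07 and 6.90) were lowest in replicate 3, Pola1 had 6.54, 6.48 and 6.48, and Pola2 had 7.83 in each array. Lig1, the ligase that seals Okazaki fragments, had 7.14, 6.99 and 6.62, whereas Fen1, the nuclease that trims their flaps, had 7.23, 7.11 and 7.11.

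Nucleotide supply held the largest difference of all 56 genes. Rrm2, the small subunit of ribonucleotide reductase that is made anew for S phase, had 8.47, 8.04 and 7.38 in replicates 1, 2 and 3 (7.96 ± 0.55, SD, n = 3). That is 2.13-fold between replicates 1 and 3 and rank 46 of 19938 genes, and it was the only one of the 56 to span more than 1 log2 unit. The large subunit Rrm1 had 8.54, 8.33 and 7.95. Tyms, thymidylate synthase, had 7.24, 7.17 and 6.72, and Tk1, the thymidine kinase of the salvage route, had 7.01, 6.86 and 6.51. In all 4 of these replicate 3 lay farthest from the others. The second probe set of Tk1 gave 6.38, 6.08 and 6.03, where replicate 2 lay near replicate 3 instead. Dut, which removes dUTP, differed from them with 7.93, 7.95 and 7.95.

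Chromatin genes and regulators were split too. Uhrf1, which guides maintenance methylation to new DNA, had 6.18, 6.00 and 5.85, whereas the histone chaperone subunits Chaf1a and Chaf1b had 6.79 and 7.43 in each array. Slbp, which binds the stem loop of histone mRNA, had 7.62, 7.58 and 7.43, and its second probe set had 7.14, 7.14 and 7.10. The 2 cyclin E genes differed from each other, since Ccne1 had 8.26 in each array and Ccne2 had 6.33, 6.14 and 5.80. The transcription factor genes E2f1 (7.57, 7.58 and 7.58) and E2f2 (6.88, 6.88 and 6.87) had nearly the same deposited values. This does not show that they were level. Clspn, the claspin gene that passes the stalled-fork signal to Chek1, had 5.50, 5.41 and 5.21, below background throughout.

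**Figure D3:**
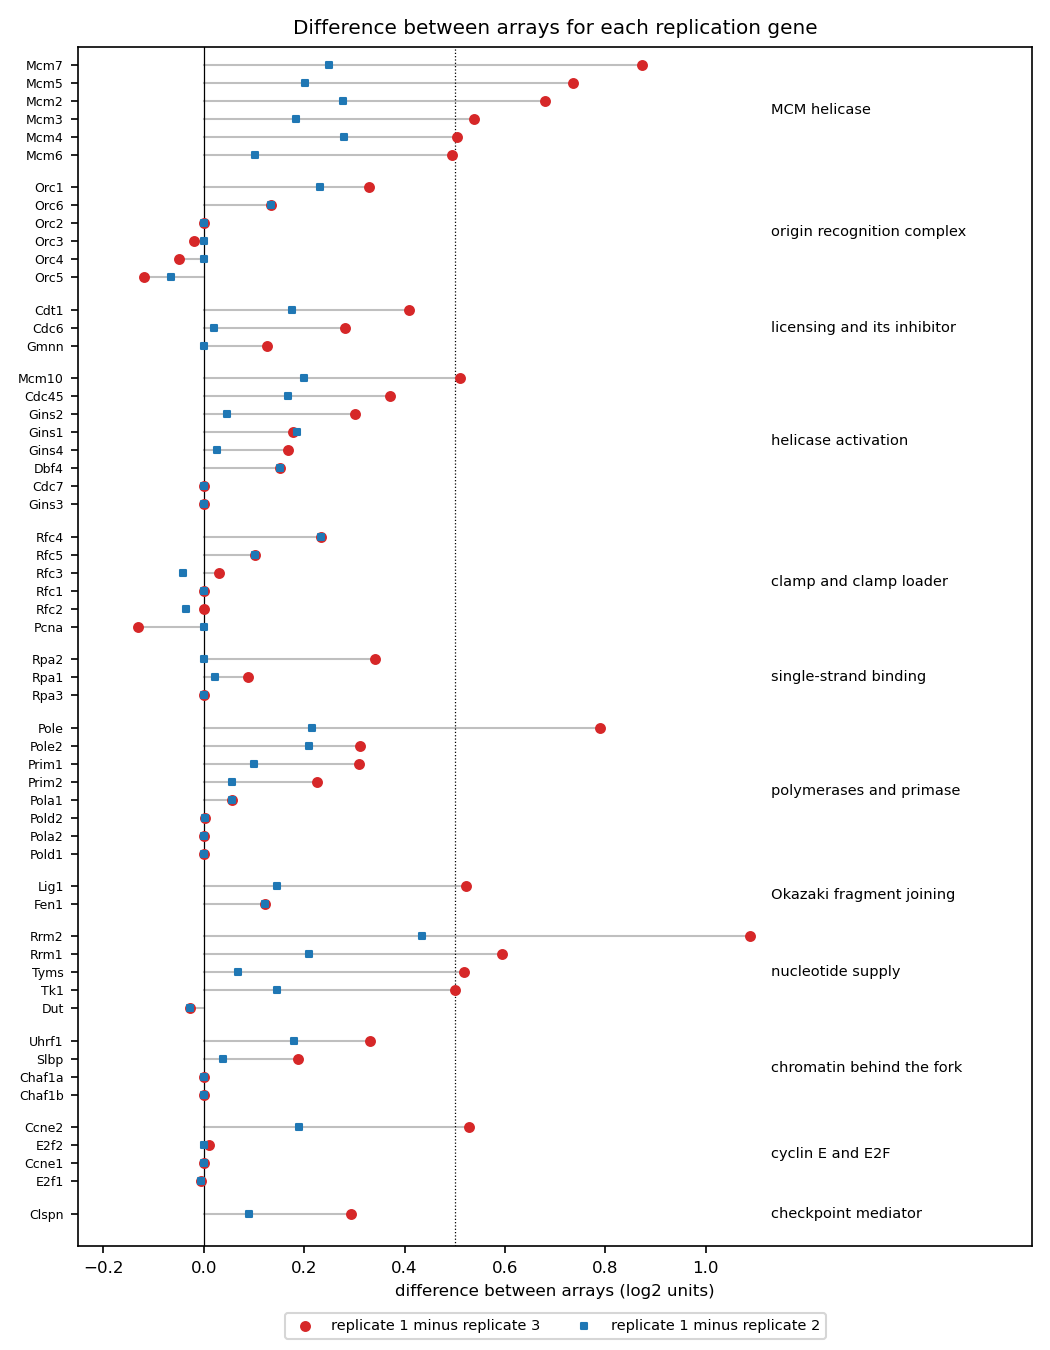
Differences between arrays in log2 units for each of the 56 genes, by role, as replicate 1 minus replicate 3 (red circles) and replicate 1 minus replicate 2 (blue squares), with a dotted line at 0.5. In the first difference Rrm2 at 1.09, Mcm7 at 0.87 and the polymerase gene Pole at 0.79 lie farthest right, and Pcna and Orc5 lie farthest left of 0.

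Other genes of the same pathway varied from gene to gene as well. Of 34 further fork and origin genes, 33 were measured and 31 were above background. Replicate 3 was the single lowest array in 17 of the 24 with values that differed, and 4 spanned more than 0.5, with a median difference of 0.064 between replicates 1 and 3. Pclaf, a PCNA-binding factor, had 8.32, 7.81 and 7.04 in replicates 1, 2 and 3, and Asf1b, a histone chaperone that feeds the CAF-1 complex, had 8.23, 7.74 and 7.12. Fbxo5, an inhibitor of the anaphase-promoting complex, had 6.67, 6.50 and 6.09, and Ticrr, which links the kinases to helicase activation, had 6.18, 6.12 and 5.69. Hells, a chromatin remodeller and with Pclaf, Asf1b and Fbxo5 the only gene of this list past 0.5, had 5.84, 5.69 and 5.26 and was named after its values were seen. These 5 genes were lowest in replicate 3.

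Of 21 measured further nucleotide genes, 1 spanned more than 0.5, and the median difference between replicates 1 and 3 was 0. That gene was Shmt2, the mitochondrial serine hydroxymethyltransferase, with 7.62, 7.35 and 6.53. Of 29 measured regulators of the passage into S phase, 3 spanned more than 0.5, and the median difference was 0.053. They were Ccna2, the cyclin of S phase and G2, with 8.19, 7.82 and 6.74, the repressor E2f8 with 7.29, 7.09 and 6.48, and Mybl2 with 6.54, 6.35 and 5.87. The remaining E2F genes of that list, E2f3 to E2f7, spanned at most 0.19 (named after their values were seen). Of 14 measured S phase checkpoint genes, 10 were above background and 1 spanned more than 0.5, with a median difference of 0. That gene was Fancd2, of the Fanconi anaemia repair pathway, with 5.81, 5.67 and 5.15, named after its values were seen. Brca1 had 6.77, 6.69 and 6.43, and Chek1, the kinase that claspin serves, had 5.95, 5.95 and 5.69.

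Mitosis genes and the markers of several other cell types were lowest in the same array. The median difference between replicates 1 and 3 was 0.17 over the 56 replication genes and 0.71 over 25 measured mitosis genes, of which 18 spanned more than 0.5. No test sets these lists apart, since genes of a list are not replicates. The sums that follow are of linear values over all measured markers of a list, in replicates 1, 2 and 3. T cell markers summed to 2722, 2194 and 1571, and 9 of the 10 with values that differed were lowest in replicate 3. NK cell markers summed to 6693, 5214 and 2975, and the 7 above background were all lowest in replicate 3, while Ncr1, Klrd1, Klrk1, Klra8 and Klre1 lay below background with identical values in the arrays. Both lists thus followed the order of the MCM genes.

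B cell and plasma cell markers did not follow that order to the same extent, with sums of 271, 264 and 249, and 4 of their 7 genes had identical values. Neutrophil markers summed to 972, 817 and 540, where 5 of the 12 were identical and Lcn2 (7.98, 6.69 and 5.12), Ly6g (6.73, 6.80 and 4.86) and Retnlg (7.35, 7.11 and 5.55) passed below the background limit in replicate 3. Mast cell and basophil markers summed to 829, 937 and 443, and the 8 of 10 with values that differed were lowest in replicate 3, with Cpa3 at 7.38, 7.54 and 5.38. Erythroid and megakaryocyte markers summed to 2124, 1787 and 1126, through the platelet genes Pf4 (10.65, 10.39 and 9.59) and Ppbp (8.04, 7.56 and 6.64). The rest of that list did not follow, since 4 of its 7 genes had identical values and Epor was highest in replicate 3 (5.91, 5.91 and 5.97). The single marker genes of these lists were named after their values were seen. Stem and progenitor markers summed to 1007, 981 and 907, but 8 of the 10 had identical values and 6 lay below background in every array. The 2 that differed were Cd48 (9.15, 9.15 and 8.98) and Cd34 (6.66, 6.23 and 5.93).

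Stromal markers showed another order, high in replicate 1 and low in both others, with sums of 1406, 524 and 537. Only Col1a1, Col1a2 and Col3a1 of that list were above background in every array. These 3 summed to 284, 254 and 259, and Col3a1 had 6.10 in each array. Dendritic cell markers summed to 28541, 29311 and 29205, and macrophage markers to 19595, 19095 and 18602. The part of any of these cell types in the replication genes' differences was not tested. Housekeeping genes had a median difference of 0 between replicates 1 and 3, and 0 of the 11 spanned more than 0.5.

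**Figure D4:**
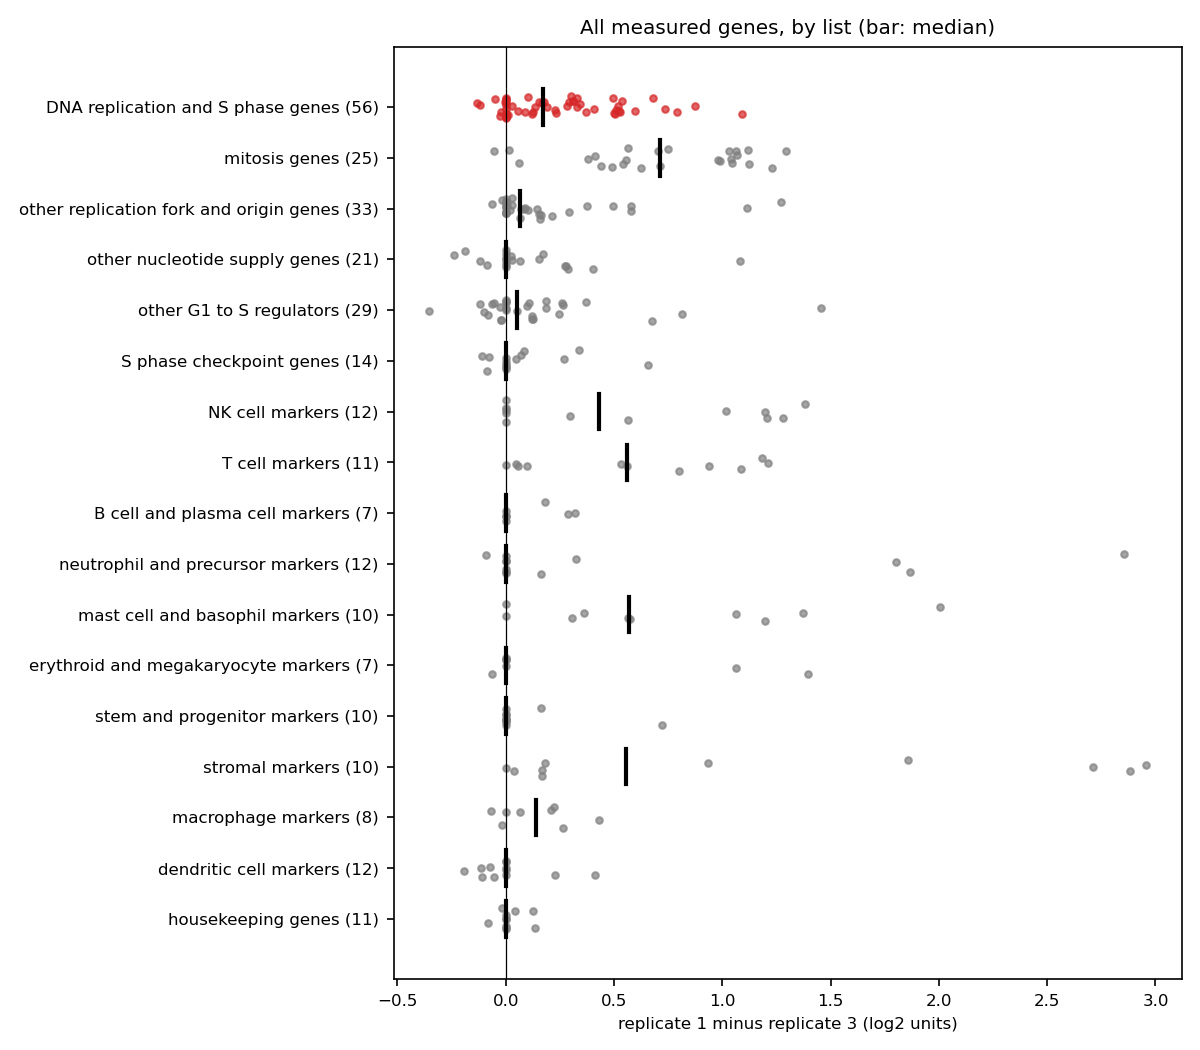
Replicate 1 minus replicate 3 in log2 units for all measured genes of each list, with 1 point per gene, a black bar at the median of each list and the number of genes in brackets. The median is 0.17 for the 56 replication genes, 0.71 for the 25 mitosis genes and 0 for the 11 housekeeping genes, and the stromal gene Lox lies farthest right at 2.96.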

How the data were processed

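Each of the 3 samples has 1 array, and all 3 form 1 group (BMDC), so nothing was tested between groups. Per the submitters' processing notes, the authors ran RMA, and what they deposited is log2 expression. The program behind it and the genome build are not given in the sources used here. No scanner intensities were used here. Probe sets naming 1 gene in the platform annotation were kept, symbols were updated by Entrez identifier through a RefSeq gene table, and each gene took its probe set of highest mean. A value was called above background where it passed, in each array, the 95th percentile of the 1210 probe sets for olfactory or vomeronasal receptors. The array differences, the span (highest minus lowest array) and the array with the lowest value were computed per gene in pandas 2.3.3, after checks on simulated data. Promoter windows came from a RefSeq table of build GRCm38.p6. Those printed belong to the 3 genes with the largest spans that hold an E2F motif and to 1 gene with the smallest span, ties taken in alphabetical order. Of each other list, the genes eligible to be named were the 4 above background with the largest spans. The members, lists and rules were chosen with earlier results of these data known. The number of arrays limits the precision.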

Additional observations from a re-analysis of the deposited data

How the results depend on the processing

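No paired analysis was possible because the replicate numbers lie within 1 group. The count of detected genes was 52 and stayed between 42 and 54 under the alternatives. The median difference between replicates 1 and 3 (0.17) was 0.16 with the mean of all probe sets, 0.14 over genes above background and 0.29 without genes of identical values, as was the median span (0.18 over all 56). With arrays centred on the median level of 11 housekeeping genes it was 0.25, but that median is the level of Pgk1 alone in each array, and it shifts replicate 3 by -0.052. With arrays centred on the median of the housekeeping genes' deviations from their own means, an alternative chosen after seeing the data, it was 0.17 and no array shifted. Leaving out 1 array gave a median span between 0.061 and 0.17 and between 0 and 13 genes over 0.5. The count over 0.5 was 12 with the mean of all probe sets, where Tk1 fell to 0.43, and 12 among genes above background. A size limit of 1 left 1 gene. Replicate 3 was the lowest array in 31 genes, in 27 by at least 0.1, in 54 after the Pgk1 shift, which gives identical values an order, and in 31 with the centring on deviations. Leaving out replicate 1 or 2, replicate 3 was the lower of the pair in 32 and 39 genes. Without replicate 3 that count has no value. The 7-letter E2F core raised the count of genes with a match to 29, against 17, as its shorter letters do by construction. Of the 56 genes, 4 (Pcna, Rpa3, Slbp and Tk1) have a second probe set, and the others cannot move with the rule for probe sets.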
